A study of Mus musculus with 8 samples.

Results

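Type I interferon-stimulated antiviral genes were followed in the colon of mice with acute graft-versus-host disease (GVHD), an attack of transplanted T cells on the organs of their new host. The genes are 35 named antiviral effectors, sensors and regulators of the interferon response, of which 34 were measured among 19505 genes. Ifi44 had no probe set named in the platform annotation used here. The treated mice had received 1.2 mg/kg hBD-2, human beta-defensin 2, by mouth from day 0 to day 7, and the control mice PBS over the same days. This antimicrobial peptide is a product of epithelia. All mice were WT BALB/c recipients, lethally irradiated on day 0 and given bone marrow cells and T cells of C57BL/6 donors, and the colon was taken on day 7. There were 4 mice in each group and 1 Affymetrix array of whole colon RNA per mouse. All 8 animals therefore had the disease, and their colons could hold both BALB/c and C57BL/6 cells. The comparison asks what hBD-2 did to gene expression in the diseased colon.

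Type I interferons are cytokines released when a cell senses viral or misplaced nucleic acid. They bind the receptor formed by Ifnar1 and Ifnar2 and activate a complex that holds Stat2 and Irf9 and binds a DNA element near the start of target genes, which switches them on. The products degrade viral RNA, block translation, tag proteins with the ubiquitin-like Isg15 or trap virus particles, and some of them (Irf7, Usp18) strengthen or restrain the same pathway. In the gut such genes are expressed by epithelial and immune cells, and epithelial cells respond also to type III interferons, which act through the same complex.

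The DNA element is a repeat of GAAA spaced by 2 bases. It was searched as GAAA, any 2 bases and GAAA again, and on the other strand as TTTC, any 2 bases and TTTC, in the 250 bases before each start site in the RefSeq promoter table (GRCm38.p6). Overlapping matches were allowed. Of the 25 measured genes with a promoter in the table, 9 held a match (36.0%), as did 544 of 15691 genes of the whole array (3.47%). The 9 were Bst2, Ifit1, Ifit3, Isg15, Oas1a, Oas3, Rsad2, Stat2 and Trim30a. The stretches of 5 of them are printed because these genes recur in the results below. Capitals mark the matched bases, and each sequence runs 5′ to 3′ on the strand of its gene.
Isg15, chr4:156200850-156200921, minus strand: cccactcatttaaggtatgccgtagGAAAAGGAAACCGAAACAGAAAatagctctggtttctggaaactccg
Ifit1, chr19:34640760-34640838, plus strand: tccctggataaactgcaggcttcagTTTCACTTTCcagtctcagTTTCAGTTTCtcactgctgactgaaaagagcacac
Ifit3, chr19:34583348-34583441, plus strand: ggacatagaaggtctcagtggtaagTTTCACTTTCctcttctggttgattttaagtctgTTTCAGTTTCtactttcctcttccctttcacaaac
Oas3, chr5:120777700-120777759, minus strand: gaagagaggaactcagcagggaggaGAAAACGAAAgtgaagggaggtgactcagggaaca
Bst2, chr8:71537562-71537627, minus strand: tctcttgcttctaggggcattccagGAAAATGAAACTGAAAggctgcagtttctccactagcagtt
Isg15 held 3 overlapping matches 57 to 78 bases before its start, and Ifit1 held 2 between 76 and 104 bases before its start. Ifit3 held 2, between 113 and 156 bases before a start site that lies inside the annotated gene. Its gene begins at chr19:34583119, so the printed stretch lies within it. Bst2 held 2 overlapping matches. A match is a description of these letters and no evidence of binding. The plot of motif shares sets these genes beside the related lists.

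**Figure D1:**
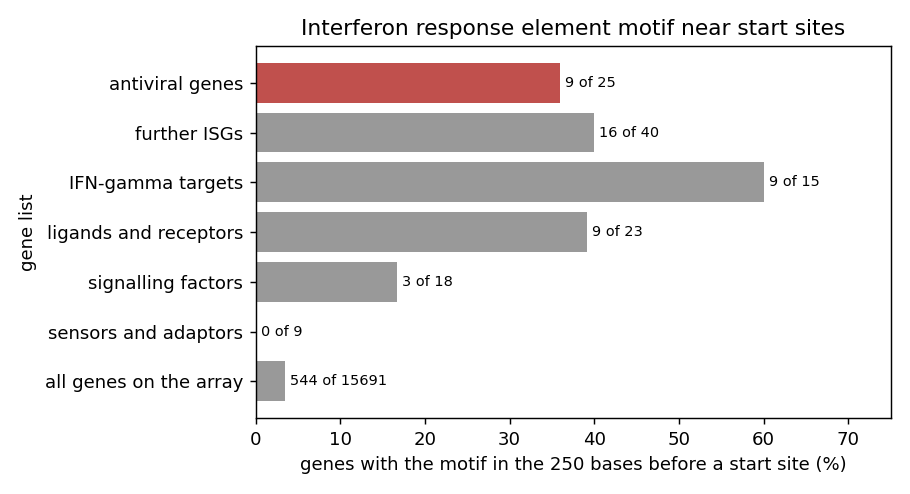
Share of genes with at least 1 match of the interferon response motif in the 250 bases before a start site, as horizontal bars in percent, with counts of genes beside each bar. The antiviral genes stood at 36.0%, below interferon-gamma targets (60.0%), further interferon-stimulated genes (40.0%) and interferon ligands and receptors (39.1%) and above signalling factors (16.7%), sensors (0 of 9) and the whole array (3.47%).

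No antiviral gene passed the test of hBD-2 against PBS mice. All differences below are on the log2 scale, hBD-2 minus PBS, from limma fitted to all 19505 genes, with Benjamini-Hochberg adjustment over all of them and a threshold of 0.05. At that threshold 0.041% of all genes were called, and 0 of the 34. At an unadjusted p under 0.05 again 0 of the 34 were called, against 11.8% of all genes (5.98% lower and 5.85% higher in hBD-2 mice). There were 17 genes with a positive difference and 17 with a negative one. Their median difference was -0.00046, beside 0.012 over all genes, and the median size of the difference regardless of sign was 0.058, beside 0.093. In none of the 34 were the groups free of overlap, against 6.41% of all genes (3.6% lower, 2.8% higher). The widest differences were -0.26 for Ifit3 and 0.24 for Oas2. The lowest unadjusted p was that of Parp12, 0.0623, which became 0.447 after adjustment in limma.

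A missed threshold does not show equal levels, so the intervals matter. For 33 of the 34 genes the 95% interval of the difference lay within a 1.5-fold change in either direction, as it did for 91.1% of all genes. The exception was Oas2, whose interval ran from -0.23 to 0.70. The lowest bound belonged to Ifit3, at -0.57. RMA makes the distributions of all arrays alike, so a shift shared by most genes would not show. In whole tissue, fewer cells of a type and less RNA per cell cannot be told apart.

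**Figure D2:**
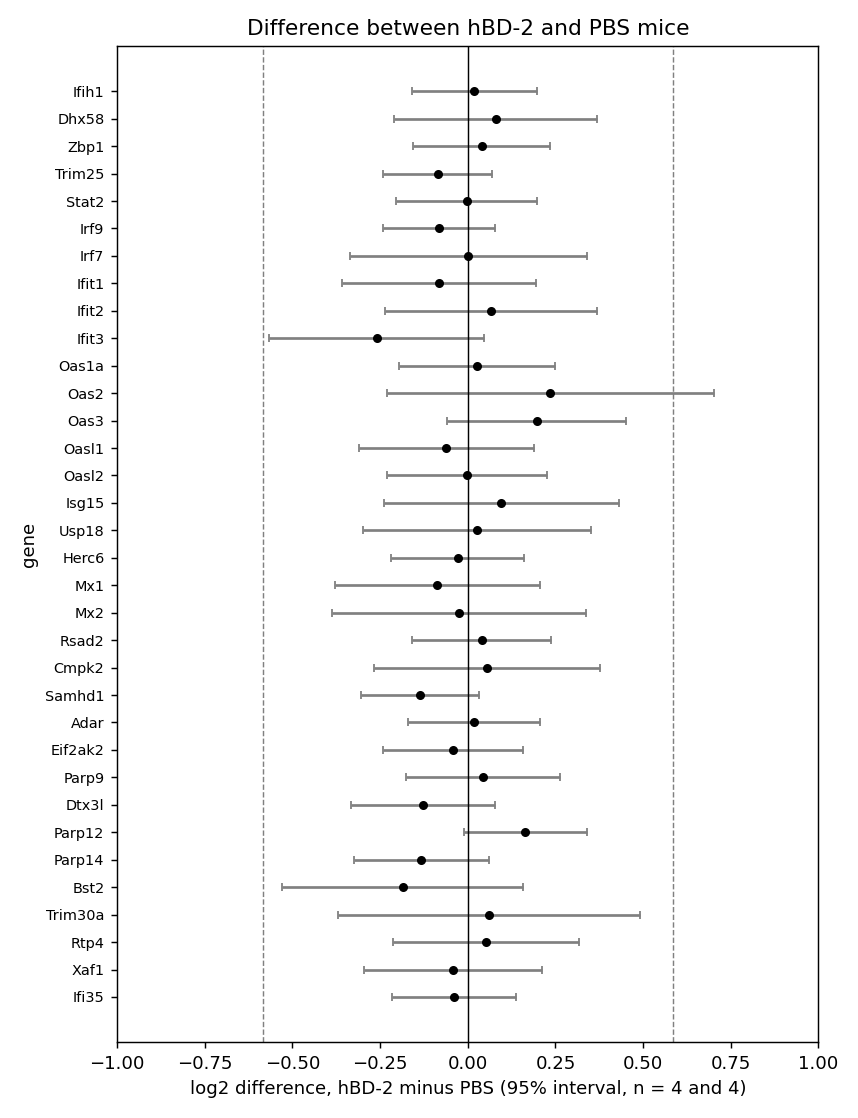
Difference in log2 level between hBD-2 and PBS mice for each of the 34 genes, with points for the fitted difference and bars for its 95% interval (4 mice in each group). Dashed lines mark a 1.5-fold change. Every interval includes 0, and that of Oas2 is the only one to cross a dashed line.

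The sensors showed differences between -0.086 and 0.080. Ifih1, which encodes the cytosolic RNA sensor MDA5, measured 10.93, 10.95, 10.76 and 10.79 log2 units in hBD-2 mice 1 to 4, against 10.77, 10.99, 10.79 and 10.81 in PBS mice 1 to 4. Dhx58, encoding the related helicase LGP2, measured 8.39, 8.73, 8.45 and 8.42 in hBD-2 mice, against 8.28, 8.80, 8.29 and 8.31 in PBS mice. In both genes the highest mouse was PBS 2, and in both hBD-2 2 came next. Zbp1, a sensor of left-handed nucleic acid that can start cell death, differed by 0.040 (SE 0.088). Trim25, a ubiquitin ligase that acts on the RIG-I pathway, differed by -0.086 (SE 0.070).

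The transcription factors of the response differed by -0.081 to 0.0018. Stat2 averaged 9.93 ± 0.096 in hBD-2 mice and 9.93 ± 0.14 in PBS mice (SD, n = 4 each), a difference of -0.0030 (95% interval -0.20 to 0.20). Irf9, the DNA-binding partner of Stat2, differed by -0.081 (95% interval -0.24 to 0.078). Irf7, itself an interferon target that drives further interferon genes, measured 10.29, 10.81, 10.60 and 10.44 in hBD-2 mice, against 10.31, 10.95, 10.42 and 10.45 in PBS mice. The groups overlapped over most of their range, with PBS 2 and hBD-2 2 at the top and a difference of 0.0018 (95% interval -0.34 to 0.34).

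The IFIT proteins bind foreign RNA and block its translation. Ifit3 measured 8.85, 9.17, 8.70 and 8.91 in hBD-2 mice, against 9.04, 9.54, 9.11 and 8.99 in PBS mice. In 3 of the 4 hBD-2 mice it was below every PBS mouse, while hBD-2 2 was above 3 of the PBS mice. The difference was -0.26 (SE 0.14, adjusted p = 0.490 in limma), the most negative of the 34. Without PBS 2 it was at -0.14, and with hBD-2 2 left out at -0.35. Ifit1 measured 9.05, 9.28, 9.09 and 8.88 in hBD-2 mice, against 8.96, 9.40, 8.97 and 9.31 in PBS mice, a difference of -0.083 (SE 0.12). Ifit2 stood at 0.066 (SE 0.14), so the 3 neighbours of chromosome 19 did not share a direction. Ifit3 has a near-identical copy, Ifit3b, at -0.21 (SE 0.15), and array probes may not separate the pair.

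The OAS enzymes make a short oligoadenylate messenger that activates the RNA-degrading RNase L when they meet double-stranded RNA. Oas2 measured 8.57, 9.18, 9.01 and 8.86 in hBD-2 mice, against 8.37, 9.34, 8.42 and 8.55 in PBS mice. All 4 hBD-2 mice lay above 3 of the PBS mice, but PBS 2 was the highest mouse of all. The difference was 0.24 (SE 0.21, adjusted p = 0.687 in limma), or 1.18-fold, and the PBS mice spread more widely (SD 0.45) than the hBD-2 mice (SD 0.26). Oas3 measured 7.70, 8.01, 7.79 and 7.83 in hBD-2 mice, against 7.59, 7.96, 7.46 and 7.55 in PBS mice. It again had every hBD-2 mouse above PBS 1, PBS 3 and PBS 4, and differed by 0.20 (SE 0.12, adjusted p = 0.532). Oas1a was at 0.025, and the OAS-like genes Oasl1 and Oasl2 at -0.061 and -0.0027. Oas1a lies in a cluster of near-identical copies, among them Oas1g at 0.10 (SE 0.090) and Oas1b at 0.13 (SE 0.079), which probes may share.

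Isg15 is joined to target proteins like ubiquitin, Herc6 is the main ligase for this in mice, and Usp18 removes the tag and also damps the interferon receptor. Isg15 measured 7.27, 7.56, 7.45 and 7.40 in hBD-2 mice, against 6.99, 7.80, 7.28 and 7.23 in PBS mice. The hBD-2 mice all lay inside the PBS range, and the SD was 0.12 in hBD-2 mice and 0.34 in PBS mice. Usp18 measured 9.61, 9.72, 9.49 and 9.76 in hBD-2 mice, against 9.50, 10.09, 9.53 and 9.35 in PBS mice, with all hBD-2 mice again inside the PBS range. Isg15 differed by 0.095 (SE 0.15), Usp18 by 0.028 (SE 0.15) and Herc6 by -0.029 (SE 0.086).

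Mx1 and Mx2 belong to a family of dynamin-like GTPases that block virus replication. The RefSeq gene table lists both as transcribed pseudogenes in the reference genome GRCm38.p6. Whether these mice make a working protein from either was not tested. Mx1 measured 6.99, 7.16, 7.37 and 7.29 in hBD-2 mice, against 7.24, 7.66, 7.18 and 7.08 in PBS mice, and differed by -0.088 (SE 0.13). Mx2 measured 8.08, 8.78, 8.37 and 8.63 in hBD-2 mice, against 8.43, 8.83, 8.26 and 8.44 in PBS mice. Mx2 spread more in hBD-2 mice (SD 0.31) than in PBS mice (SD 0.24), and without hBD-2 mice 1 and 3 its difference moved to 0.21, where it was -0.025 over all 8 mice.

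The enzymes that act on nucleotides and RNA differed by -0.14 to 0.054. Rsad2, or viperin, makes a nucleotide that ends viral RNA chains, and its neighbour Cmpk2 supplies the substrate; they stood at 0.040 (SE 0.089) and 0.054 (SE 0.15). Cmpk2 measured 9.25, 9.25, 9.15 and 9.13 in hBD-2 mice, against 8.86, 9.61, 8.95 and 9.15 in PBS mice. The hBD-2 mice were close together and inside the PBS range. Adar, which edits adenosine in double-stranded RNA and so hides the cell's own RNA from MDA5, was at 0.018, and Eif2ak2, the RNA-activated kinase PKR that stops translation, at -0.042. Samhd1, which breaks down the building blocks of DNA, measured 10.99, 10.80, 10.83 and 10.82 in hBD-2 mice, against 10.97, 10.97, 11.12 and 10.95 in PBS mice. In Samhd1 3 of the 4 hBD-2 mice were below all PBS mice, and the difference was -0.14 (SE 0.076, adjusted p = 0.510 in limma).

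Parp9 and Dtx3l form a complex that marks proteins with ADP-ribose and ubiquitin, and Parp12 and Parp14 are further ADP-ribosyl transferases. Parp12 measured 11.26, 11.20, 11.17 and 11.10 in hBD-2 mice, against 10.88, 11.16, 11.01 and 11.01 in PBS mice. The groups overlapped only through PBS 2, which lay above hBD-2 4, and the difference was 0.16 (95% interval -0.010 to 0.34). Parp14 and Dtx3l were at -0.13 each (SE 0.087 and 0.093) and Parp9 at 0.044 (SE 0.099), so the 4 genes had no common direction. Parp9 and Dtx3l were both lowest in hBD-2 4, at 8.99 and 9.26.

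Of the remaining effectors, Bst2, or tetherin, which holds budding virus at the cell surface, measured 8.58, 9.0, 8.73 and 8.94 in hBD-2 mice, against 8.82, 9.47, 8.85 and 8.86 in PBS mice. PBS 2 stood 0.63 above the mean of the other PBS mice, and the difference between groups was -0.19 (SE 0.15, adjusted p = 0.662 in limma). Trim30a, a regulator of inflammatory signalling, measured 8.40, 8.68, 8.39 and 8.09 in hBD-2 mice, against 8.10, 8.94, 8.04 and 8.24 in PBS mice, with a difference of 0.061 (SE 0.19). The chaperone-like Rtp4, the apoptosis-related Xaf1 and Ifi35 stood at 0.053, -0.043 and -0.040.

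**Figure D3:**
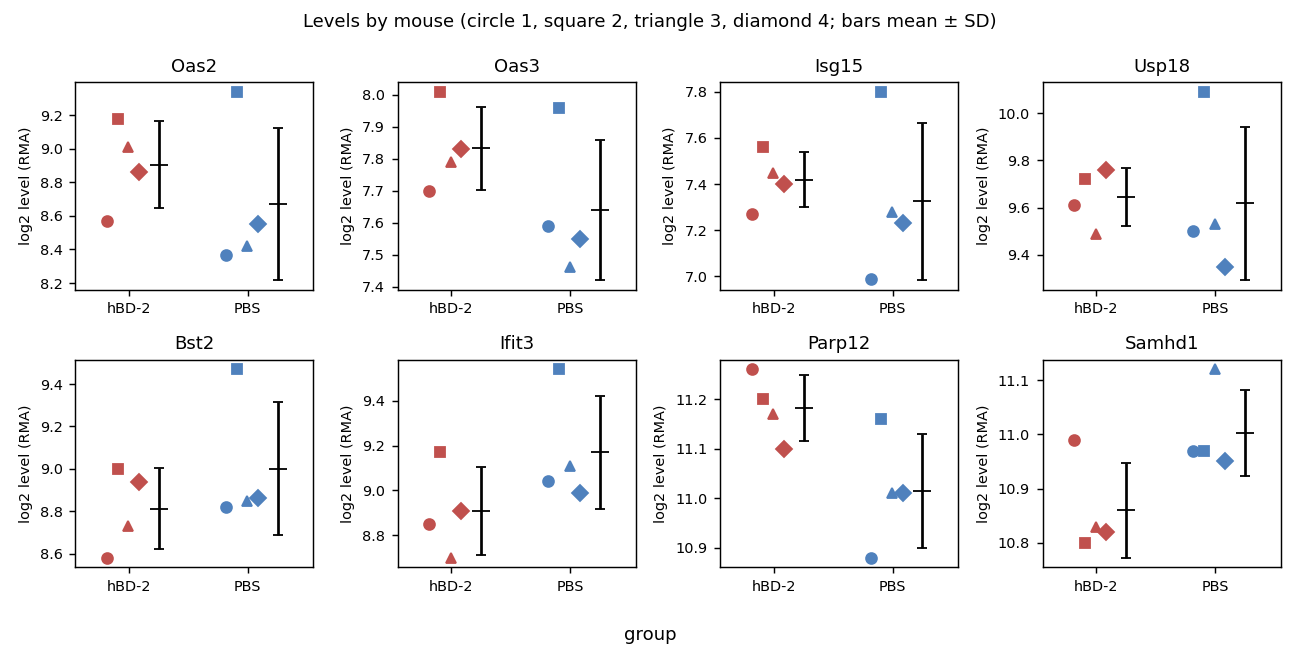
Log2 level (RMA) of 8 of the genes in each mouse, hBD-2 mice in red and PBS mice in blue, with the symbol giving the mouse number and black bars the mean ± SD of 4 mice. PBS 2, the blue square, is the highest mouse in 5 of the 8 panels (Oas2, Isg15, Usp18, Bst2 and Ifit3), and Oas3, Parp12 and Samhd1 had another mouse at the top.

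In most of these genes a single PBS mouse stood highest. PBS 2 was the highest of the 8 mice in 27 of the 34 genes, beside 12.4% of all genes, and the highest of the PBS mice in 31, beside 23.2%. It stood above the mean of the other 3 PBS mice in 33 of 34 genes, beside 49.1% of all genes. The median gap was 0.31, and it reached 0.89 in Oas2, 0.81 in Trim30a and 0.63 in Bst2, Isg15, Usp18 and Cmpk2. Over all genes the median of that gap was -0.003. The exception was Samhd1, at -0.040, and Parp9, Dtx3l and Parp14 were close to it at 0.058 to 0.066. PBS 1 was the lowest of the 8 mice in 11 genes, against 11.2% of all genes. Among the hBD-2 mice, hBD-2 2 was the highest in 17 of the 34 genes, beside 31.0% of all genes, and it was second of the 8 mice in 15, beside 14.1%.

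**Figure D4:**
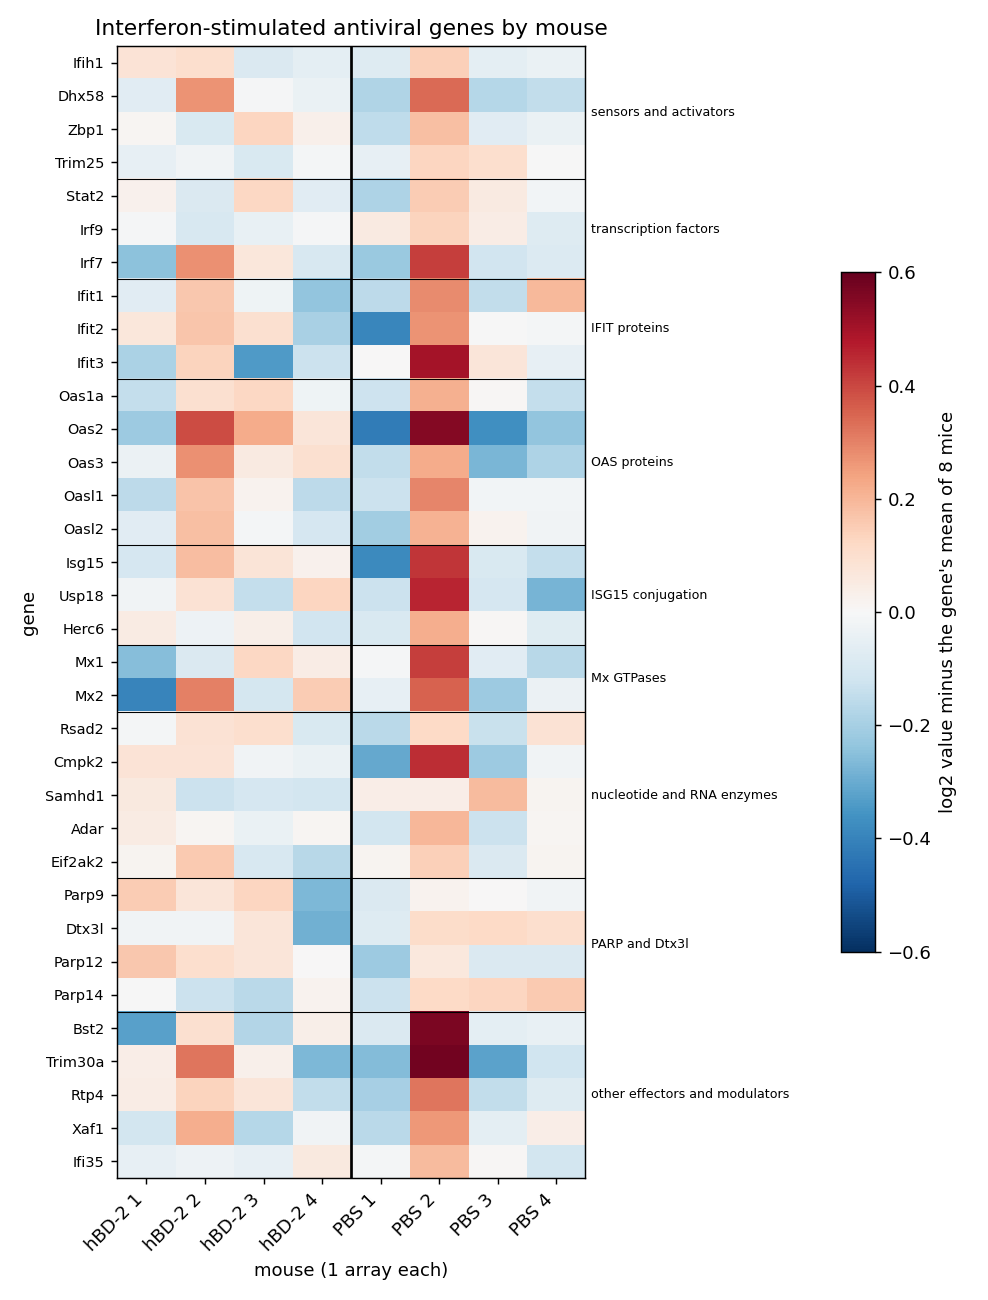
Level of each of the 34 genes (rows, by role) in each mouse (columns, hBD-2 mice left of PBS mice), coloured by the log2 value minus the mean of the gene over the 8 mice. The column of PBS 2 is red in nearly every row, hBD-2 2 is the reddest of the hBD-2 columns, and PBS 1 is mostly blue.

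Averaged over the 34 genes and relative to each gene's mean, hBD-2 mice 1 to 4 stood at -0.050, 0.099, -0.0033 and -0.057, and PBS mice 1 to 4 at -0.14, 0.27, -0.065 and -0.049. All hBD-2 mice thus lay inside the PBS range. Gene by gene, all 4 hBD-2 mice lay inside the PBS range in 14 of 34 genes, beside 15.5% of all genes, and the reverse held in 2, beside 21.1%. The PBS SD exceeded the hBD-2 SD in 29 of 34 genes, beside 43.4% of all genes. Without PBS 2 it did so in 14, beside 41.8%. PBS 2 was singled out from these same values, so a smaller PBS SD without it was favoured in advance. That count is a description and no test, and the all-gene share beside it is no like measure.

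The balance of directions changed when PBS 2 or PBS 1 was left out. PBS 2 was singled out from these same values, as the highest PBS mouse in 31 of the 34 genes, beside 23.2% of all genes. Leaving it out lowers the PBS mean of those genes, so positive differences were favoured in advance. The counts without it are a description and no test, and the all-gene shares beside them are no like measure. Without it, 26 of the 34 genes had a positive difference and the median was 0.068. In limma without PBS 2, 5 of the 34 were higher in hBD-2 mice at an unadjusted p under 0.05, against 3.93% of all genes, none was lower (4.67% of all genes were, and 8.6% in either direction), and 0 passed after adjustment. The 5 were Oas2 at 0.46 (SE 0.14), Oas3 at 0.30 (SE 0.093), Isg15 at 0.25 (SE 0.10), Parp12 at 0.21 (SE 0.080) and Cmpk2 at 0.21 (SE 0.093), with adjusted p between 0.426 and 0.580 in limma. With PBS 1 left out the count turned the other way, to 29 negative differences and a median of -0.047. PBS 1 was the lowest PBS mouse in 22 of the 34 genes, beside 21.9% of all genes, so negative differences were favoured in advance there. Nothing in the labels sets PBS 2 apart from the other PBS mice.

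Mice 1 and 3 of the hBD-2 group, which stand apart on the first principal component of all genes (25.2 and 25.4, against -14.9 to -2.5 in the other 6), did not stand apart in these genes. With both left out the median difference was 0.018, and again 0 of the 34 passed at either threshold, beside 12.8% of all genes at an unadjusted p under 0.05 (5.48% lower, 7.35% higher).

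Upstream of these genes, the interferon ligands and receptors had a median difference of 0.069, beside 0.012 over all genes. Differences were positive in 18 and negative in 7, beside 10428 and 9077 of all genes. The median size of the difference regardless of sign was 0.111, beside 0.093 over all genes. Of 25 measured, 1 was higher and 1 lower at an unadjusted p under 0.05, beside 5.85% and 5.98% of all genes. After adjustment 0 passed in limma. Ifnb1 measured 5.41, 5.55, 5.22 and 5.41 in hBD-2 mice, against 5.08, 5.23, 5.19 and 5.50 in PBS mice, a difference of 0.15 (SE 0.11). The higher one was Ifna1, at 5.96, 6.47, 5.88 and 6.23 in hBD-2 mice, against 5.59, 5.48, 5.74 and 5.94 in PBS mice. The groups overlapped, and the difference of 0.45 (SE 0.14) had an adjusted p of 0.263 in limma. In every mouse Ifnb1 and Ifna1 lay below the array medians of all probe sets (6.77 to 6.82). Ifna5 stood at 0.31 (SE 0.14). The genes of interferon alpha are near-identical copies whose probes may cross-react. The receptor chain Ifnar2 measured 9.41, 9.62, 9.08 and 9.41 in hBD-2 mice, against 9.67, 9.78, 9.57 and 9.65 in PBS mice. It differed by -0.29 (SE 0.11, adjusted p = 0.350), and by -0.15 without hBD-2 mice 1 and 3. The other chain, Ifnar1, was at -0.12 (SE 0.073), and Ifnlr1, the specific chain of the type III receptor, at 0.017 (SE 0.086).

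Of 19 signalling and transcription factors measured, 2 were lower and 0 higher at an unadjusted p under 0.05, beside 5.98% and 5.85% of all genes. After adjustment 0 passed in limma. The 2 lower ones were the feedback inhibitor Socs3 at -0.27 (SE 0.12) and the transcription factor Stat3 at -0.16 (SE 0.070). Without PBS 2 neither was called, while 4.67% of all genes were lower. Without hBD-2 mice 1 and 3 the 1 called was Socs1, at -0.40, with Socs3 at -0.14, beside 5.48% of all genes lower. The receptor kinases Jak1 and Tyk2 were at -0.14 (SE 0.068) and 0.086 (SE 0.079), the adaptor Myd88 at -0.19 (SE 0.087) and the inhibitor Socs1 at -0.19 (SE 0.14). Irf3, the factor that first induces interferon beta, was at -0.0086 and Irf1 at -0.051.

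Among 14 nucleic acid sensors and adaptors 3 were lower at an unadjusted p under 0.05 and 0 higher, beside 5.98% and 5.85% of all genes. After adjustment 0 passed in limma. Tlr7, the endosomal sensor of single-stranded RNA, measured 7.10, 7.22, 6.69 and 7.23 in hBD-2 mice, against 8.16, 8.34, 7.85 and 7.71 in PBS mice. The groups did not overlap, and the difference was -0.96 (SE 0.16, adjusted p = 0.0707), wider than in any of the 34 antiviral genes. Tlr7 passed in limma fitted with an intensity trend and a robust prior (adjusted p = 0.0135, where 0.436% of all genes were called lower) and with array weights (adjusted p = 0.0378, where 0.302% were). The others were Ifi204, a DNA-binding sensor, at -0.37 (SE 0.11) and Tlr8 at -0.37 (SE 0.16). Without hBD-2 mice 1 and 3, 1 of the 14 was lower at an unadjusted p under 0.05, beside 5.48% of all genes. There Tlr8 was at -0.11 and Ifi204 at -0.21. Ddx58, Mavs and Sting1 passed at neither threshold. Ddx58, which encodes RIG-I, was at -0.13 (95% interval -0.41 to 0.15). The RIG-I adaptor Mavs was at 0.11 (SE 0.095) and the DNA pathway adaptor Sting1 at -0.057 (SE 0.10).

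A further 46 interferon-stimulated genes, listed apart from the 34, had a median difference of -0.027, which turned to 0.034 without PBS 2. Of them 6 were lower and 0 higher at an unadjusted p under 0.05, beside 5.98% and 5.85% of all genes. After adjustment 0 passed in limma. The lowest p belonged to Ms4a4c, a membrane protein gene of mouse myeloid and lymphoid cells, at 5.73, 6.03, 5.95 and 5.94 in hBD-2 mice, against 6.42, 6.92, 6.32 and 6.61 in PBS mice. The groups did not overlap (difference -0.66, SE 0.13, adjusted p = 0.104). Ifitm1, which hinders virus entry, was at -0.34 (SE 0.084) and Slfn8 at -0.42 (SE 0.11), both without overlap. PBS 2 was the highest of the 8 mice in 23 of these 46 genes as well, beside 12.4% of all genes. With an intensity trend and robust prior, Ms4a4c and Ifitm1 passed (adjusted p = 0.0499 and 0.0404 in limma).

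The 23 targets chosen for interferon-gamma had a median difference of -0.14. At an unadjusted p under 0.05, 6 were lower and 0 higher, beside 5.98% and 5.85% of all genes, and 0 passed after adjustment. The 3 with the lowest p were Cd274, encoding the inhibitory ligand PD-L1, at -0.34 (SE 0.097), the GTPase Iigp1 at -0.29 (SE 0.092) and Gbp4 at -0.29 (SE 0.11). Without PBS 2, 3 of the 23 were lower, beside 4.67% of all genes. Without hBD-2 mice 1 and 3 there were 13, beside 5.48%. The latter fit keeps only 2 hBD-2 mice, and 1 of them, hBD-2 2, was the lowest mouse for this list. The order of the interferon-gamma targets among mice was another than that of the antiviral genes. In hBD-2 2 the interferon-gamma targets stood lowest of the 8 mice, at -0.34 relative to each gene's mean, whereas the antiviral genes stood second highest there, at 0.099. In hBD-2 1 the interferon-gamma targets were highest, at 0.16, and the antiviral genes were at -0.050.

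**Figure D5:**
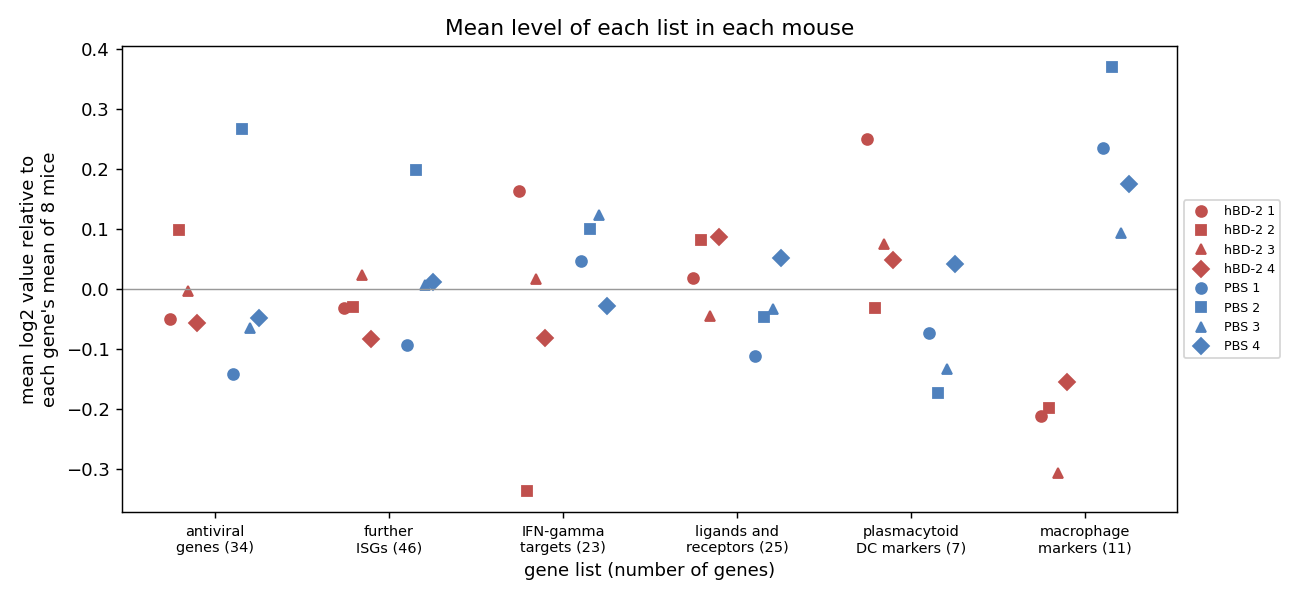
Mean log2 level of 6 gene lists in each mouse, relative to each gene's mean over the 8 mice, with hBD-2 mice in red to the left of PBS mice in blue and the symbol giving the mouse number. For the antiviral genes the hBD-2 mice (-0.057 to 0.099) lie inside the range of the PBS mice (-0.14 to 0.27), whereas for macrophage markers the groups are apart (-0.31 to -0.15 in hBD-2 mice, 0.093 to 0.37 in PBS mice).

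Several cell type lists had negative medians, though 0 markers of any list passed after adjustment in the main limma fit. With an intensity trend and robust prior, 4 monocyte and macrophage, 2 stroma and 1 T cell markers passed. In that fit 0.467% of all genes were called. The counts that follow are from the main fit at an unadjusted p under 0.05, where 5.98% of all genes were lower and 5.85% higher. Without hBD-2 mice 1 and 3 the shares were 5.48% and 7.35%. Of 11 monocyte and macrophage markers, 8 were lower and 0 higher, with a median difference of -0.46. Their mean log2 level was 7.88 to 8.03 in hBD-2 mice and 8.28 to 8.56 in PBS mice, with PBS 2 the highest. Of 7 stroma markers 6 were lower, with a median of -0.51 and a mean level of 9.06 to 9.59 in hBD-2 mice and 9.67 to 9.84 in PBS mice. Of 5 endothelium markers 4 were lower (median -0.43), at 6.84 to 7.40 in hBD-2 mice and 7.31 to 7.59 in PBS mice. Of 7 neutrophil markers 4 were lower (median -0.57), and 1 without hBD-2 mice 1 and 3, at 5.64 to 6.16 in hBD-2 mice and 5.78 to 6.72 in PBS mice. None of the stroma, endothelium or neutrophil markers was higher. Of 5 B and plasma cell markers 1 was higher and 0 lower. Of 7 T cell markers 2 were lower (5 without hBD-2 mice 1 and 3), and the mean level was 7.10 to 7.63 in hBD-2 mice and 7.42 to 7.80 in PBS mice. Of 7 plasmacytoid dendritic cell markers, cells that release much type I interferon, 2 were higher and 0 lower, Klk1 and Cox6a2, of which Klk1 is also expressed in colon epithelium. Their mean level was 7.10 to 7.38 in hBD-2 mice and 6.96 to 7.17 in PBS mice, and PBS 2 was the lowest mouse. Klk1 and Cox6a2 differed by 0.70 (SE 0.23) and 0.41 (SE 0.074). The defining marker Siglech differed by -0.0053 (95% interval -0.28 to 0.27). Tcf4 went the other way, at -0.16 (SE 0.081). It was lower in every hBD-2 mouse than in every PBS mouse, as 3.6% of all genes were. Ccr9, Spib and Ly6d were at 0.0074, 0.083 and 0.16. Colon epithelium markers, 12 in number, averaged 11.57 to 11.66 in hBD-2 mice and 11.54 to 11.64 in PBS mice, with 2 higher and 0 lower. The part of these cell types in the levels of Tlr7, Ms4a4c and the antiviral genes was not tested.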

How the data were processed

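Titles gave each sample's group and replicate number. Log2 values were deposited for 22203 probe sets; per the submitters' processing notes they were made with oligo by RMA (versions and the array's genome build: not given in the sources used here). Of these, 19572 carried 1 gene in the platform annotation, 0 carried several, and 2631 stayed unnamed. Gene identifiers of all 19572 were found in the GRCm38.p6 gene table, with 0 symbols changed. For the 55 genes with more than 1 probe set, none of them an antiviral gene here, the probe set of highest mean was used. No background signal is available, and precision is set by the number of arrays.

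The test was limma 3.58.1 (lmFit, eBayes, R 4.3.3), two-sided, with moderated standard errors and 95% intervals. It was also run on simulated arrays with independent noise and larger shifts than those of the antiviral genes. That run did not cover differences of their size or levels shared within a mouse. Gene lists, markers, roles, tests and alternatives were chosen with earlier results of these data known. Named were all measured antiviral genes, the 3 genes of lowest p in each related list and a set of core pathway genes. Same-numbered mice were not treated as pairs. The alternatives were a trended robust variance prior, a filter on the lowest 25% of genes, median centring, a second quantile normalization, probe set means, array weights, a replicate block, each array left out, and hBD-2 mice 1 and 3 both left out. Plots used matplotlib 3.10.9.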

Additional observations from a re-analysis of the deposited data

Results flagged for a closer look

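In groups of 4 mice, the highest or lowest mouse was compared with its nearest neighbour by Dixon's ratio of gap to range, against the 95% critical value for 4 values. Of 120 groups from 60 genes 9 passed, and chance flags about 1 group in 20. Of these, 7 belonged to antiviral genes. PBS 2 was far above the other PBS mice in Ifih1 (10.99, against 10.77 to 10.81), Dhx58 (8.80, against 8.28 to 8.31) and Bst2 (9.47, against 8.82 to 8.86). PBS 1 was far below them in Dtx3l (9.47, against 9.65 to 9.67) and Parp14 (8.81, against 9.06 to 9.10). In Samhd1 both groups had a high mouse, hBD-2 1 at 10.99 (against 10.80 to 10.83 in the other hBD-2 mice) and PBS 3 at 11.12 (against 10.95 to 10.97 in the other PBS mice). The kinase gene Tyk2 was low in hBD-2 4, at 8.74 (against 8.95 to 8.99), and Irf1 in hBD-2 2, at 10.45 (against 10.65 to 10.67).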

How the results depend on the processing

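Across the alternatives run, 0 of the 34 antiviral genes passed after adjustment in limma, and the median difference stayed between -0.047 and 0.068, within the spread between mice. Counts at an unadjusted p under 0.05, 0 over all mice, were 1 lower (6.44% of all genes) and 1 higher (5.3%) with the intensity trend, 1 higher with array centring (7.67%) or array weights (7.51%), and with single arrays left out 0 to 1 lower and 0 to 5 higher (4.57% to 6.95% and 3.93% to 7.43% of all genes). Groups without overlap numbered 0 to 4 with single arrays left out, against 8.47% to 13.6% of all genes (4 without PBS 2, beside 8.47%), and 1 with hBD-2 mice 1 and 3 both left out, beside 21.8%. The replicate block gave 1 lower (Ifit3, -0.26) and 1 higher (Oas3, 0.20) antiviral gene at an unadjusted p under 0.05, beside 6.25% and 6.9% of all genes, and 0 of all genes after adjustment; deviations of same-numbered mice correlated at -0.15, 0.14, 0.24 and 0.045, and 3 of 8 arrays correlated best with their own number, so the numbers were not taken as pairs. Over all genes, 8 calls became 91 with the intensity trend, 16 without the lowest 25% of genes, 4 with quantile normalization repeated, 68 with array weights, 0 without hBD-2 mice 1 and 3, and 0 to 11 with single arrays left out.

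Genes near 0 changed sign. Array centring put Stat2 at 0.017, Oasl2 at 0.017 and Irf3 at 0.011, repeated quantile normalization put Stat2 at 0.0060 and Irf3 at 0.013, and array weights put Stat2 at 0.020, Irf7 at -0.031, Usp18 at -0.025 and Sting1 at 0.00080. Without hBD-2 mice 1 and 3, Zbp1 was at -0.012, Oasl2 at 0.036, Mx2 at 0.21, Parp9 at -0.077, Xaf1 at 0.078, Ifnlr1 at -0.029 and Ddx58 at 0.038. The cause was not tested. With single arrays left out the sign turned in 21 antiviral genes, over the ranges Ifih1 (-0.012 to 0.068), Zbp1 (-0.0018 to 0.11), Stat2 (-0.066 to 0.048), Irf7 (-0.089 to 0.14), Ifit2 (-0.053 to 0.17), Oas1a (-0.019 to 0.10), Oasl1 (-0.13 to 0.027), Oasl2 (-0.074 to 0.068), Isg15 (-0.016 to 0.25), Usp18 (-0.062 to 0.18), Herc6 (-0.065 to 0.037), Mx1 (-0.16 to 0.035), Mx2 (-0.13 to 0.10), Rsad2 (-0.0061 to 0.088), Cmpk2 (-0.041 to 0.21), Adar (-0.022 to 0.086), Eif2ak2 (-0.10 to 0.0057), Trim30a (-0.035 to 0.26), Rtp4 (-0.0040 to 0.17), Xaf1 (-0.12 to 0.038) and Ifi35 (-0.083 to 0.016), and in Ifnlr1 (-0.016 to 0.082), Irf1 (-0.081 to 0.00080), Irf3 (-0.061 to 0.043) and Sting1 (-0.13 to 0.022).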
